A study of Mus musculus with 82 samples.

Results

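The expressed star-strand miRNAs of the mouse extended amygdala are 63 of the 332 mouse star-strand probe sets, and of the 1111 mouse mature miRNA probe sets, on the array used. They were chosen by name (mmu-, with "-star") and by a mean log2 level over 2.5 across all 40 miRNA arrays, and miR-9-star, which also lies over that level, was left out. The level that chose them is a description and is not tested here. The arrays came from 20 female C57BL/6J mice, 2 months old, with no transgene. Alcohol mice (8 mice) had 24 hours of daily access for 30 days to a bottle of 20% ethanol beside a bottle of water, and control mice (12 mice) drank from water bottles. From each mouse, part of one homogenate of the extended amygdala was filtered and pelleted as synaptoneurosomes (SN), a fraction that holds pinched-off synaptic endings, and part was kept as total homogenate (TH). The groups are therefore SN of alcohol mice (n = 8), TH of alcohol mice (n = 8), SN of control mice (n = 12) and TH of control mice (n = 12). A fraction is a mixture of whatever passed the filters, and each mouse gave 1 array per fraction.

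A miRNA hairpin is cut by Drosha with Dgcr8 in the nucleus and by Dicer1 in the cytoplasm, which leaves a duplex of short strands. An Argonaute protein keeps one of them, the guide, and the other was long called the passenger or star strand. Many star strands are nevertheless loaded and can repress mRNAs through their own seed, bases 2 to 8 from the 5′ end, which differs from the seed of the guide. miR-134 and miR-138 are known for roles in dendritic spines, and miR-150 for its abundance in lymphocytes.

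Of the 63 star strands, 47 were matched to a mature sequence in RefSeq (build GRCm38.p6), 10 through a name with a locus number and 37 through the arm that miRBase later gave to the star name, which the deposited files do not state. Of these, 32 lie on the 3p arm and 15 on the 5p arm of their hairpin. The sequences of the star strands whose SN and TH levels, or whose balance against the partner strand, passed a test below are shown 5′ to 3′ with the seed in capitals, so that the seeds can be compared.
miR-677-star: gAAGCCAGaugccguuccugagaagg
miR-134-star: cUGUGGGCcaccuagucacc
let-7b-star: cUAUACAAccuacugccuuccc
miR-652-star: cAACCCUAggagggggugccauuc
miR-30a-star: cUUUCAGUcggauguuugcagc
miR-181a-1-star: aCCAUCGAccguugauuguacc
miR-138-1-star: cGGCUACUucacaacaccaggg
miR-674-star: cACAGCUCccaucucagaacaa
miR-150-star: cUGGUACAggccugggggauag
miR-377-star: aGAGGUUGcccuuggugaauuc
miR-7b-star: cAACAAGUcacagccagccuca

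These strands lie at chr10:128085335-128085360 (miR-677-star), chr12:109734184-109734203 (miR-134-star), chr15:85707379-85707400 (let-7b-star), chrX:142739020-142739043 (miR-652-star), chr1:23272315-23272336 (miR-30a-star) and chr1:137966508-137966529 (miR-181a-1-star), all on the plus strand of GRCm38.p6. The others lie at chr9:122682936-122682957 (miR-138-1-star), chr2:117185186-117185207 (miR-674-star), chr7:45121798-45121819 (miR-150-star), chr12:109740515-109740536 (miR-377-star) and chr17:56243055-56243076 (miR-7b-star), also on the plus strand. No sequence is shown for miR-328-star, miR-3072-star and miR-504-star. For the 4 hairpins below, the partner strand in RefSeq shows the other seed of the same duplex.
miR-677: uUCAGUGAugauuagcuucuga
miR-134: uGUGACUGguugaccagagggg
let-7b: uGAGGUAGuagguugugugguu
miR-377: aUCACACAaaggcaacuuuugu

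Seeds were shared within 3 pairs of star strands. miR-30a-star and miR-30e-star share UUUCAGU and have the same base at 21 of 22 positions counted from the 5′ end. miR-181a-1-star and miR-181c-star share CCAUCGA and match at 20 of 22 positions, and miR-7a-2-star and miR-7b-star share AACAAGU and match at 18 of 22. The 2 star strands of the miR-138 hairpins, whose guide is the same, match at 18 of 20 positions when one is moved by 2 bases, and their seeds differ. Array signals of such close pairs may come in part from each other. let-7b-star and let-7d-star match at 18 of 22 positions but have different seeds, UAUACAA and UAUACGA. These identities were counted without gaps. The sequences were 20 to 26 bases long, with a median GC content of 54.5%, against 52.2% over the 1679 mature names in RefSeq's table. The first base was C in 20, A in 14, U in 8 and G in 5 of the 47. Of 56 star strands whose hairpin had a position, 12 lay on chromosome 12 between Dlk1 and Dio3, an imprinted locus with a large miRNA cluster.

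The mean levels of the 63 star strands over the 40 arrays ran between 2.51 and 8.43 on the log2 scale, with a median of 4.06. The array medians over all 1111 mouse probe sets were 0.82 to 1.00. Levels of different probe sets depend on the probes as well as on the RNA, so they are given one by one and do not rank abundance between strands. The 10 with the highest mean were miR-149-star (8.43), miR-330-star (8.24), miR-140-star (8.14), miR-3077-star (7.69), miR-127-star (7.06), miR-138-1-star (6.71), miR-7a-2-star (6.70), miR-138-2-star (6.07), miR-29b-2-star (5.84) and miR-431-star (5.84). Just inside the rule were miR-193-star (2.54), miR-433-star (2.53) and miR-486-star (2.51), and just outside were miR-28-star (2.47), miR-668-star (2.44) and miR-7a-1-star (2.44). All 63 were measured on every array and none was filtered out later, and on single arrays 50 to 63 of them lay over 2.5.

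**Figure D1:**
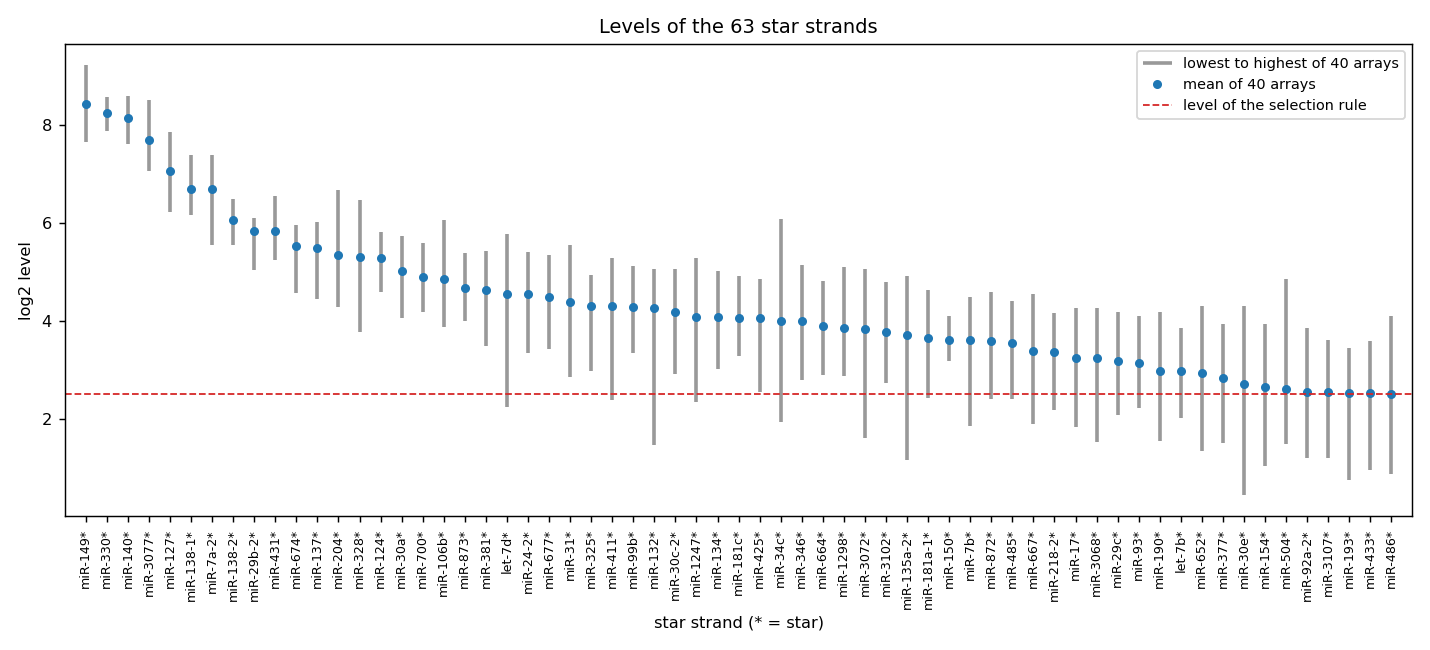
Mean log2 level over 40 arrays (points) and lowest to highest array (bars) of the 63 star strands, in order of the mean, with the level of 2.5 that chose them as a dashed line. The means run between 2.51 and 8.43, and the bars are longer for many strands of low level.

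Star strands of high level varied less among arrays of one group. The SD within groups was lowest for miR-330-star (0.18), followed by miR-150-star (0.21) and miR-29b-2-star (0.21), and highest for miR-30e-star (0.91). It had a median of 0.45 over the 63, of 0.25 over the 10 of highest level and of 0.65 over the 10 of lowest level. Correlations between arrays over the mouse miRNAs with a mean over 2.5 were 0.91 to 0.99. The wide span of levels between miRNAs favours high values, so these do not show whether a single array is poor. The SD of an array's deviations from its group was 0.27 to 0.55, highest in SN of alcohol mouse 2. Among marker miRNAs, neuronal miR-124, miR-128, miR-138 and miR-9 did not pass a test between SN and TH. Of 9 vessel-wall miRNAs, 5 of them under the level of 2.5, 3 were lower in SN of alcohol mice and 4 in SN of control mice. Their summed linear level was 226 to 459 in SN against 1116 to 1811 in TH of alcohol mice. In control mice it was 227 to 347 in SN against 1117 to 1973 in TH. In both drinking groups miR-150 was lower in SN, of 7 blood miRNAs (4 under the level). There miR-146a was higher, of 3 astrocyte and microglia miRNAs (2 under the level). The part of these markers in the star-strand results was not tested.

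SN and TH of the same mouse were compared to ask which star strands differ between the synaptic fraction and the whole tissue. A log2 difference is SN minus TH, fitted by limma over all 1111 mouse miRNAs with the mouse as a block, and "passed" means a Benjamini-Hochberg adjusted p under 0.05. In alcohol mice 4 of the 63 star strands were lower in SN and none was higher, and under quantile normalization 4 were lower and 3 higher. In control mice 5 were higher and 4 lower, and 5 in all passed under quantile normalization as well as with both drinking groups in one fit. For all miRNAs the share that passed was 4.05% in alcohol mice (0.81% higher and 3.24% lower) and 6.21% in control mice (2.61% higher and 3.6% lower). Among the 324 miRNAs with a mean over 2.5, star strands included, it was 11.4% in alcohol mice and 16.7% in control mice. The median difference of the 63 was 0.05 in alcohol mice and 0.11 in control mice, against 0.00 and 0.03 over all 1111. In bulk samples, a smaller share of one cell type's material and less of a miRNA per cell cannot be told apart.

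miR-677-star and miR-134-star, the 2 that passed in both drinking groups, were lower in SN. miR-677-star was at 3.43 to 4.78 (median 3.80) in SN against 4.50 to 5.35 (5.04) in TH of alcohol mice, and at 3.63 to 4.92 (4.29) in SN against 4.17 to 5.30 (4.77) in TH of control mice. The groups overlap, but SN was lower in every one of the 8 alcohol and 12 control mice. The difference was -1.06 ± 0.16 (SE, adjusted p = 0.00207) in alcohol mice and -0.57 ± 0.10 (adjusted p = 0.00272) in control mice.

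miR-134-star, from a hairpin between Dlk1 and Dio3, was at 3.02 to 4.37 (median 3.55) in SN against 4.11 to 4.94 (4.44) in TH of alcohol mice. In control mice it was at 3.23 to 4.62 (3.85) in SN and 3.79 to 5.02 (4.29) in TH. SN was higher in only 1 of 8 alcohol mice and 2 of 12 control mice. The differences were -0.87 ± 0.20 (adjusted p = 0.0338) and -0.48 ± 0.12 (adjusted p = 0.0299). The call did not hold in most of the fits that left out a mouse: it remained in 2 of 8 in alcohol mice and in 3 of 12 in control mice.

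let-7b-star and miR-328-star passed in alcohol mice and not in control mice. let-7b-star, the 3p strand of the let-7b hairpin, was at 2.15 to 3.06 (median 2.42) in SN against 3.04 to 3.87 (3.43) in TH of alcohol mice, so the ranges barely meet. In control mice it was at 2.02 to 3.75 (2.86) in SN and 2.25 to 3.61 (3.15) in TH, with full overlap. SN was lower in 8 of 8 alcohol mice, and the difference was -1.0 ± 0.14 (adjusted p = 0.00157). In control mice the difference was -0.24 ± 0.15 (adjusted p = 0.479), and the test of the difference between both drinking groups, given below, did not pass.

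miR-328-star was at 4.35 to 5.78 (median 5.01) in SN against 4.91 to 6.48 (5.96) in TH of alcohol mice, lower in SN in 8 of 8 mice, with a difference of -0.82 ± 0.16 (adjusted p = 0.0125). In control mice it was at 3.79 to 6.03 (4.86) in SN and 5.15 to 6.04 (5.49) in TH, higher in SN in 2 of 12, with a difference of -0.65 ± 0.20 (adjusted p = 0.0685). The adjusted p in alcohol mice was 0.0841 when the mouse was not used as a block.

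In control mice miR-652-star had the largest rise among the star strands. It was at 2.63 to 3.92 (median 3.43) in SN against 1.77 to 3.43 (2.58) in TH, higher in SN in 11 of 12 mice, with a difference of 0.82 ± 0.17 (adjusted p = 0.0087). In alcohol mice it was at 1.99 to 4.31 (2.92) in SN and 1.35 to 3.79 (2.76) in TH, higher in SN in 5 of 8, and the difference was 0.30 ± 0.27 (adjusted p = 0.709). Its partner strand was also higher in SN of control mice, by 0.34 ± 0.07 (adjusted p = 0.0106, in 11 of 12). In alcohol mice the partner differed by 0.14 (adjusted p = 0.592).

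miR-181a-1-star was also higher in SN of control mice, at 3.17 to 4.64 (median 4.04) in SN against 2.79 to 3.85 (3.40) in TH, in 11 of 12 mice (difference 0.57 ± 0.14, adjusted p = 0.0265). In alcohol mice it was at 3.18 to 4.60 (4.10) in SN and 2.42 to 3.78 (3.08) in TH, in 7 of 8 mice, and the difference of 0.98 ± 0.25 missed the threshold (adjusted p = 0.0599). miR-181c-star, with the same seed, differed by 0.13 in alcohol mice and 0.05 in control mice, and passed in neither (adjusted p = 0.864 and 0.866).

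miR-30a-star, miR-138-1-star and miR-674-star rose by smaller amounts in SN of control mice. miR-30a-star was at 4.94 to 5.62 (median 5.14) in SN against 4.59 to 5.28 (4.90) in TH (difference 0.37 ± 0.09, adjusted p = 0.0229, higher in 11 of 12). miR-138-1-star was at 6.54 to 7.39 (6.81) in SN and 6.16 to 6.88 (6.58) in TH (0.26 ± 0.07, adjusted p = 0.0408, higher in 11 of 12). miR-674-star was at 5.31 to 5.96 (5.75) in SN and 5.14 to 5.70 (5.45) in TH (0.28 ± 0.08, adjusted p = 0.0415, higher in 12 of 12). In alcohol mice none of them passed, with differences of 0.40, 0.05 and 0.25. The partner strand of miR-674 was also higher in SN of control mice (0.33 ± 0.07, adjusted p = 0.0122, in 12 of 12). That of miR-30a did not pass there (-0.003, adjusted p = 0.990). miR-30e-star, which shares the miR-30a-star seed, differed by 0.52 in alcohol mice and 0.25 in control mice, and passed in neither.

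miR-3072-star and miR-504-star were lower in SN of control mice. miR-3072-star was at 1.61 to 4.18 (median 3.34) in SN against 3.32 to 5.05 (4.29) in TH, with a difference of -0.97 ± 0.23 (adjusted p = 0.0224, higher in 2 of 12). In alcohol mice it was at 2.5 to 4.67 (3.70) in SN and 3.73 to 4.99 (4.46) in TH, with a difference of -0.90 ± 0.26 (adjusted p = 0.0961). miR-504-star was at 1.48 to 3.14 (2.41) in SN against 2.00 to 3.97 (3.03) in TH of control mice (-0.66 ± 0.17, adjusted p = 0.0372), and its difference in alcohol mice was -0.65 ± 0.23 (adjusted p = 0.179). Over both drinking groups its mean was 2.28 in SN and 2.93 in TH, so it met the level of 2.5 through TH alone, and its lower level in SN is a description that the rule itself favours. By these means it is the 1 strand among the calls of which this holds. Of the 63, the SN mean was not over 2.5 in 2 and the TH mean in 4. Within alcohol mice alone, let-7b-star had a mean of 2.498 in SN against 3.50 in TH. Its SN level there was thus not over 2.5 either.

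The count for control mice rests on few mice. Without control mouse 2 it was 2 and without control mouse 3 it was 3, and it was 4 without control mouse 9 and 4 without control mouse 10. miR-677-star and miR-652-star passed in all 12 fits that left out a control mouse, and miR-3072-star in 11 of them. These 3 also passed in all 6 other settings. The calls of the other 6 were lost in at least 1 of those settings, where the highest adjusted p was 0.0571 for miR-134-star, 0.0547 for miR-504-star, 0.069 for miR-181a-1-star, 0.110 for miR-138-1-star, 0.124 for miR-30a-star and 0.186 for miR-674-star. Under quantile normalization miR-134-star, miR-504-star, miR-138-1-star and miR-674-star were lost. In alcohol mice let-7b-star, miR-677-star and miR-328-star passed in all 8.

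**Figure D2:**
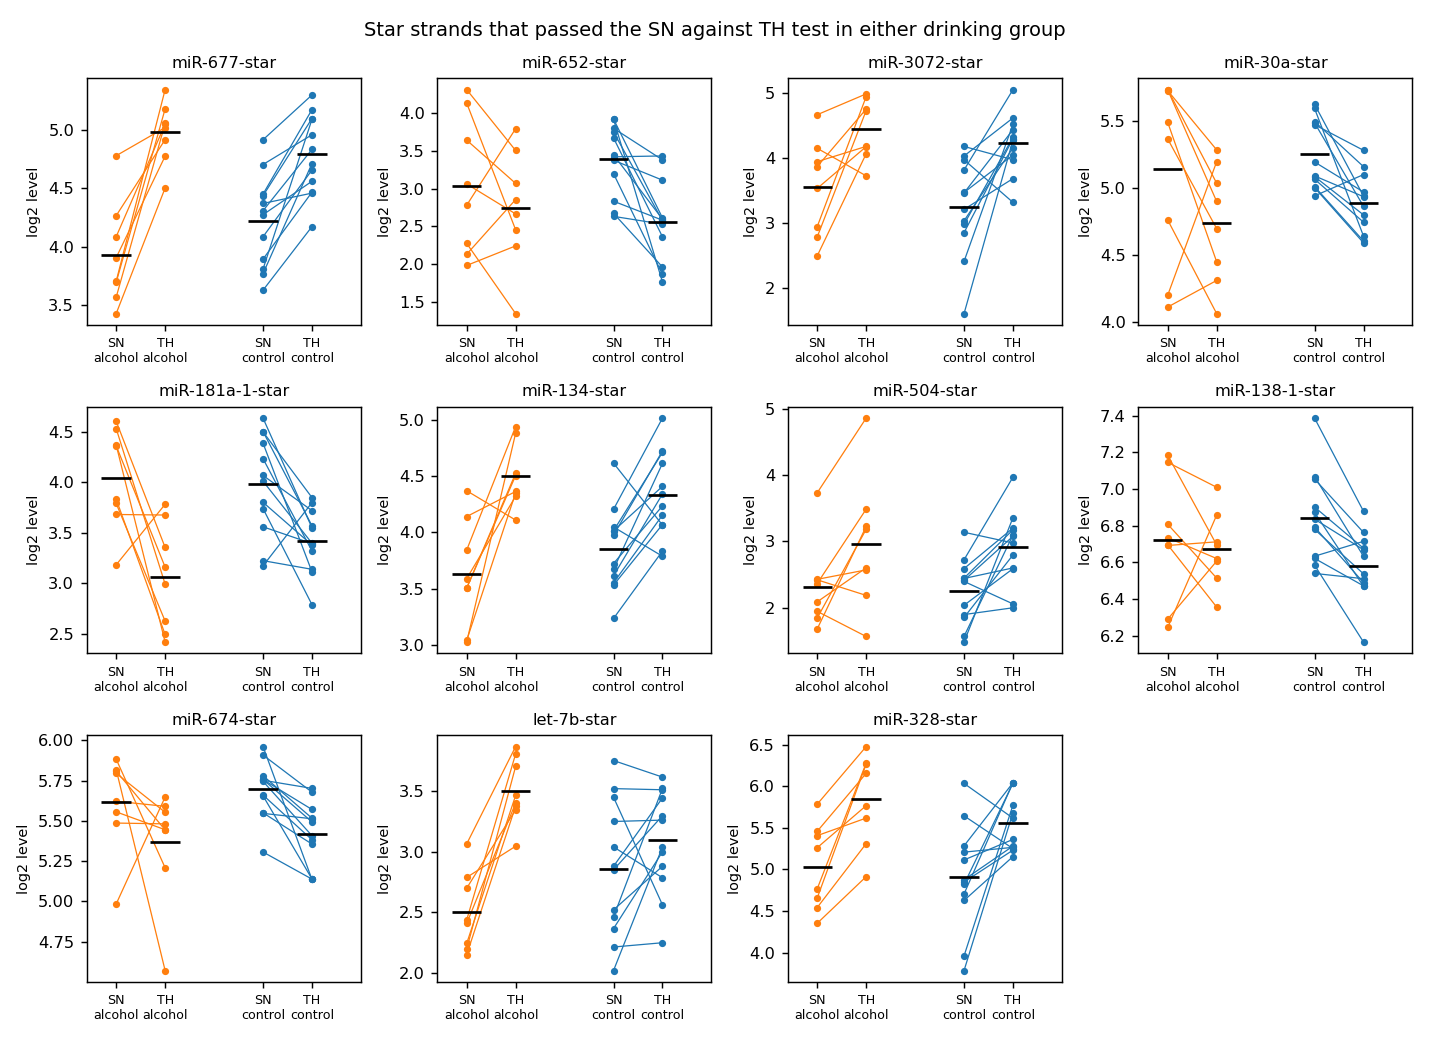
log2 levels of the 11 star strands that passed in either drinking group, by array, SN left of TH, alcohol mice (8 pairs, orange) left of control mice (12 pairs, blue). Lines join SN and TH of one mouse and black bars are group means. In each pair of columns of miR-677-star every line climbs toward TH, whereas most lines of miR-652-star in control mice climb toward SN.

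The calls of both drinking groups together covered 11 star strands, each with the same sign in the other group, and 41 of the 63 had the same sign in both. The 12 star strands of hairpins between Dlk1 and Dio3 held 1 that was lower in SN of alcohol mice (miR-134-star) and 2 in control mice (miR-134-star and miR-3072-star), and none that was higher. Their median difference was 0.00 in alcohol mice and -0.02 in control mice. Of the 324 miRNAs over the level that chose the star strands, 28 were lower in SN of alcohol mice and 26 in SN of control mice. Over all 1111 miRNAs the lower share was 3.24% in alcohol mice and 3.6% in control mice. Whether the locus departs from these shares was not tested. GC content was 50.0 to 62.5% (median 50.0%) in the 5 star strands higher in SN. It was 50.0 to 65.0% (median 57.7%) in the 3 lower ones that have a sequence. The ranges overlap, and whether they differ was not tested. Over all sequenced star strands, Spearman's rho of GC content with the SN minus TH difference was -0.16 in alcohol mice and -0.08 in control mice.

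**Figure D3:**
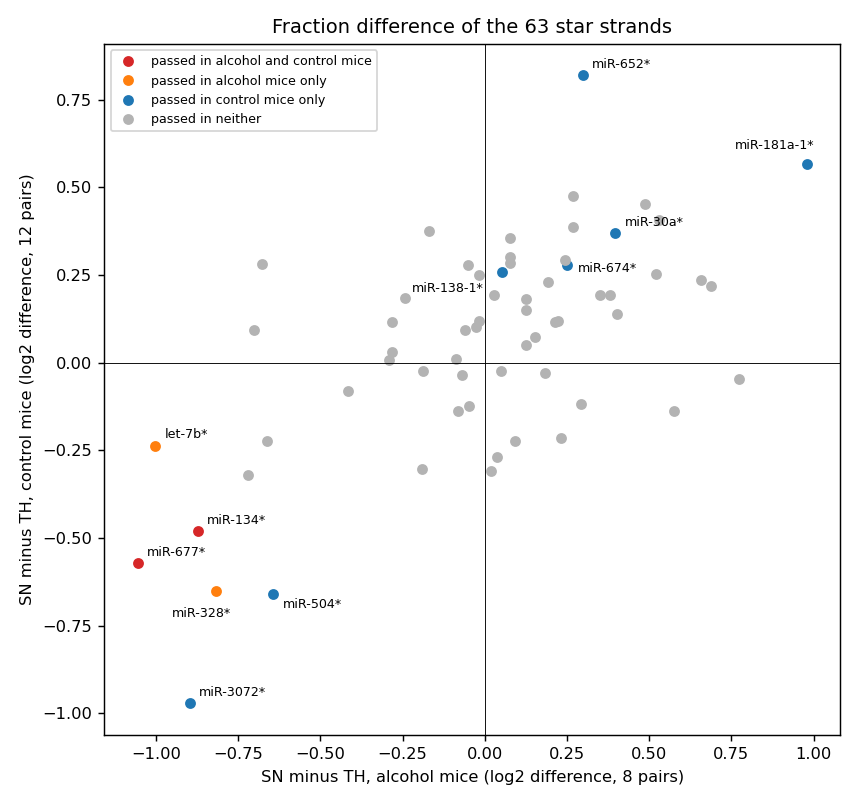
SN minus TH log2 difference of the 63 star strands in alcohol mice (x axis, 8 pairs) and control mice (y axis, 12 pairs); colours mark where a strand passed. The labelled strands all lie in the lower left or upper right, with miR-677-star and miR-134-star passing in both groups.

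Each star strand was then set against its partner strand, which comes from the same hairpin, to ask whether both strands of a duplex differ between SN and TH alike. A partner probe set was present for 53 of the 63, and 40 of these partners had a mean over 2.5. The measure is log2 star minus log2 partner on each array, and its SN minus TH difference was tested by limma over all 280 star and partner pairs. In alcohol mice 5 of the 53 passed (1 higher, 4 lower) and in control mice 4 of the 53 (1 higher, 3 lower). Over all 280 pairs the share was 3.57% in alcohol mice (1.07% higher and 2.5% lower) and 4.29% in control mice (1.79% higher and 2.5% lower). The median shift of the 53 was 0.07 and -0.01, against 0.01 and -0.01 over all pairs.

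miR-150 had the largest shift of the 53, and the partner strand was the one that differed. miR-150-star was at 3.20 to 3.55 (median 3.47) in SN against 3.44 to 4.02 (3.74) in TH of alcohol mice, and at 3.19 to 4.09 (3.61) in SN and 3.32 to 3.94 (3.63) in TH of control mice. The partner miR-150 was at 3.44 to 4.83 (4.42) in SN and 6.89 to 7.64 (7.38) in TH of alcohol mice, and at 2.05 to 4.79 (4.27) in SN and 6.78 to 7.53 (7.19) in TH of control mice. The partner's groups did not overlap, whereas the star strand's did. The strand balance shifted toward the star in SN by 2.79 ± 0.23 in alcohol mice (adjusted p = 7.93e-07, in 8 of 8) and 3.04 ± 0.21 in control mice (adjusted p = 5.43e-09, in 12 of 12). The star strand's own differences were -0.29 ± 0.10 (adjusted p = 0.156) and 0.01 (adjusted p = 0.982). miR-150-star had a mean of 3.62 and a within-group SD of 0.21. The strands next to it in level, miR-181a-1-star (3.64) and miR-7b-star (3.61), had SDs of 0.45 and 0.51. Whether so even a signal follows the RNA was not tested, so the balance here largely restates the partner's own difference.

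In miR-134 and miR-677 the star minus partner difference was lower in SN. For miR-677 it was -1.15 ± 0.20 in alcohol mice (adjusted p = 0.00281, in 8 of 8) and -0.72 ± 0.15 in control mice (adjusted p = 0.00921, in 12 of 12). Its partner, whose mean of 0.43 is under every array median, did not pass in either group (differences 0.09 and 0.15). With a partner that dim, the value restates the star strand's own difference and shows no shift of balance. miR-134 shifted by -0.80 ± 0.22 in alcohol mice (adjusted p = 0.0564) and by -0.60 ± 0.16 in control mice (adjusted p = 0.044, and 0.0538 under quantile normalization), while its partner, with a mean of 6.12, differed by -0.07 and 0.12 and did not pass.

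let-7b, miR-377 and miR-7b passed in alcohol mice, and miR-504 in control mice, all with a lower star minus partner difference in SN. let-7b shifted by -0.93 ± 0.20 (adjusted p = 0.0141, in 8 of 8), with a partner at a mean of 12.3 that differed by -0.07 (adjusted p = 0.839). This value is close to the star strand's own difference of -1.0, and let-7b-star had a mean of 2.498 in SN of alcohol mice. In control mice the balance of let-7b, miR-377 and miR-7b did not pass. Their star strands differed there by -0.24, 0.09 and -0.22, and the let-7b partner by 0.06. In alcohol mice the value was -0.90 ± 0.22 for miR-377 (adjusted p = 0.0312) and -0.84 ± 0.21 for miR-7b (adjusted p = 0.0381). Their partners had means of 1.33 and 0.88, near the array medians, and differed by 0.19 and 0.18, and their star strands did not pass on their own (adjusted p = 0.0863 and 0.272), so no shift of balance is read from them. For miR-504 it was -0.91 ± 0.23 in control mice (adjusted p = 0.0315, and 0.0598 with both drinking groups in one fit) and -0.91 ± 0.33 in alcohol mice (adjusted p = 0.206), with a partner mean of 2.49 and a star strand that met the level through TH alone, so it is given as a description.

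Read strand by strand, in alcohol mice the star strand alone passed in 4 hairpins, the partner alone in 1 and both in none. In control mice the star strand alone passed in 5, the partner alone in 3, and both in 2 (miR-652 and miR-674), in the same direction. These counts cover the 53 hairpins only. No share over all pairs is given beside them, so they are not read as a trait of these hairpins. A call in one strand and not in the other does not by itself show a difference, for which the strand balance is the test. The count for control mice was 2 without control mouse 2, 3, 9 or 11, each left out in turn, and that for alcohol mice was 3 without alcohol mouse 1 or 3. miR-150 and miR-677 passed in both groups in every fit that left out a mouse, and let-7b did in alcohol mice. With both strands required to have a mean over 2.5 (41 pairs tested in all), 2 passed in alcohol mice, miR-150 and let-7b. In control mice 3 passed, and miR-150 and miR-134 were the 2 shared with the test over all pairs.

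**Figure D4:**
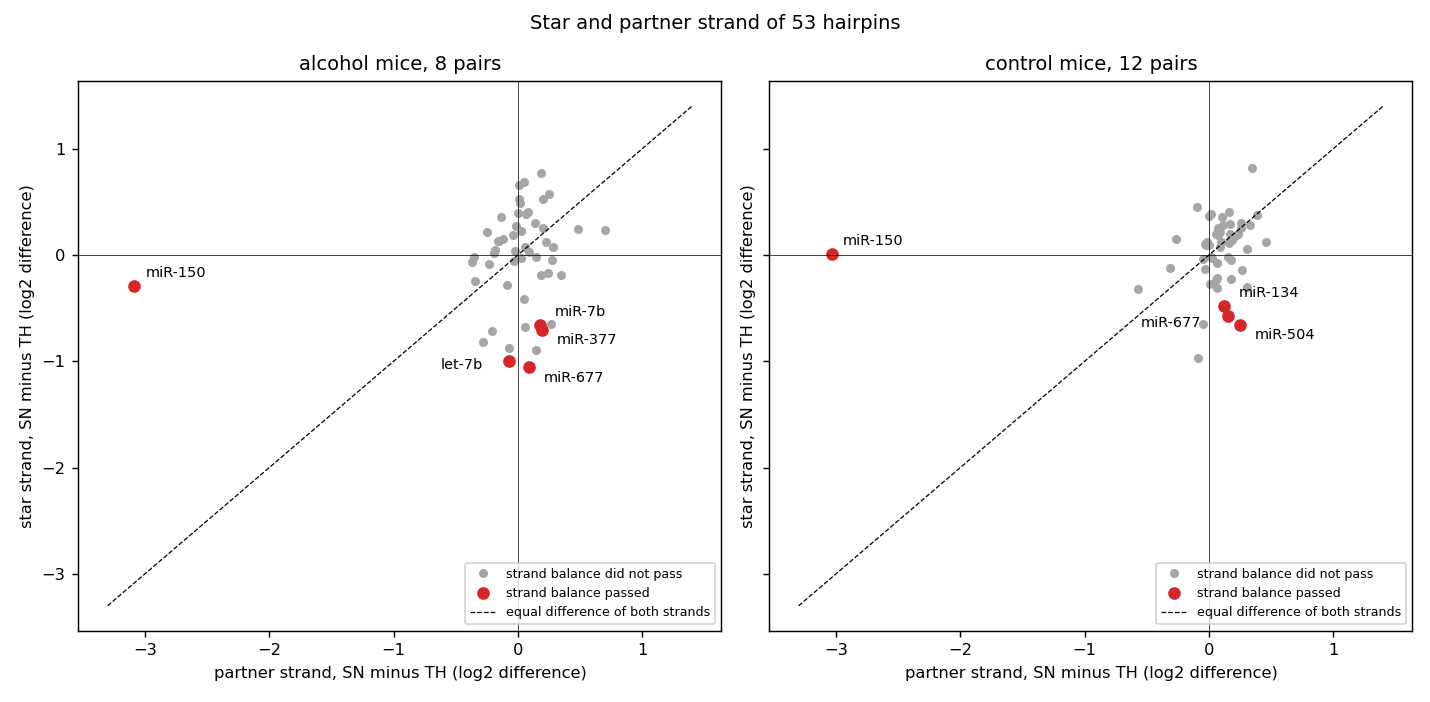
SN minus TH log2 difference of the star strand (y axis) against that of its partner (x axis) for 53 hairpins, in alcohol mice (left, 8 pairs) and control mice (right, 12 pairs); the dashed line marks equal differences and red points passed the strand balance test. miR-150 lies far to the left on both panels, with a partner difference of -3.08 and -3.03, while the other red points lie under the line near a partner difference of 0; of these the partners of miR-677, miR-377, miR-7b and miR-504 have a mean under 2.5.

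Alcohol and control mice were compared within each fraction, 8 against 12, to ask whether drinking changed the star strands. None of the 63 passed in SN, where 5 had an unadjusted p under 0.05, and none in TH, where 7 did. By limma 0 of 1111 miRNAs passed in each (0%), and the share with an unadjusted p under 0.05 was 5.85% in SN and 6.93% in TH. No star strand separated alcohol from control mice without overlap in either fraction. The share over all 1111 miRNAs is not given here, so this count is only a description. The median difference of the 63 was -0.06 in SN and 0.05 in TH, against -0.02 and 0.01 over all miRNAs. The 95% interval of a difference had a median width of 0.43 in SN and 0.38 in TH to each side, and it lay within 1 log2 unit either way for 58 star strands in SN and 54 in TH.

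In SN the smallest p below 0 belonged to miR-135a-2-star, at 2.51 to 4.52 (median 3.53) in alcohol mice and 3.44 to 4.91 (4.20) in control mice, with a difference of -0.64 ± 0.21 (adjusted p = 0.669) and a 95% interval of -1.07 to -0.22. miR-93-star differed by -0.50 ± 0.18 and miR-377-star by -0.62 ± 0.24 (both adjusted p = 0.773). Above 0 were miR-92a-2-star (0.55 ± 0.26), miR-218-2-star (0.47 ± 0.23) and miR-346-star (0.40 ± 0.23), with adjusted p of 0.784, 0.784 and 0.785. None of these 6 differences passed.

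In TH, miR-132-star, the 5p strand of a hairpin known as responsive to neuronal activity, was at 1.48 to 4.91 (median 3.55) in alcohol mice and 3.93 to 5.07 (4.46) in control mice. Its difference was -0.88 ± 0.31 (adjusted p = 0.512, 95% interval -1.52 to -0.24), and its SD was 1.10 in alcohol mice against 0.33 in control mice. miR-411-star differed by -0.69 ± 0.23 and miR-381-star by -0.51 ± 0.18, both from hairpins between Dlk1 and Dio3 (adjusted p = 0.512 each). Above 0 were miR-193-star (0.61 ± 0.23, adjusted p = 0.512), let-7b-star (0.40 ± 0.16, adjusted p = 0.548) and miR-30c-2-star (0.36 ± 0.15, adjusted p = 0.581).

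**Figure D5:**
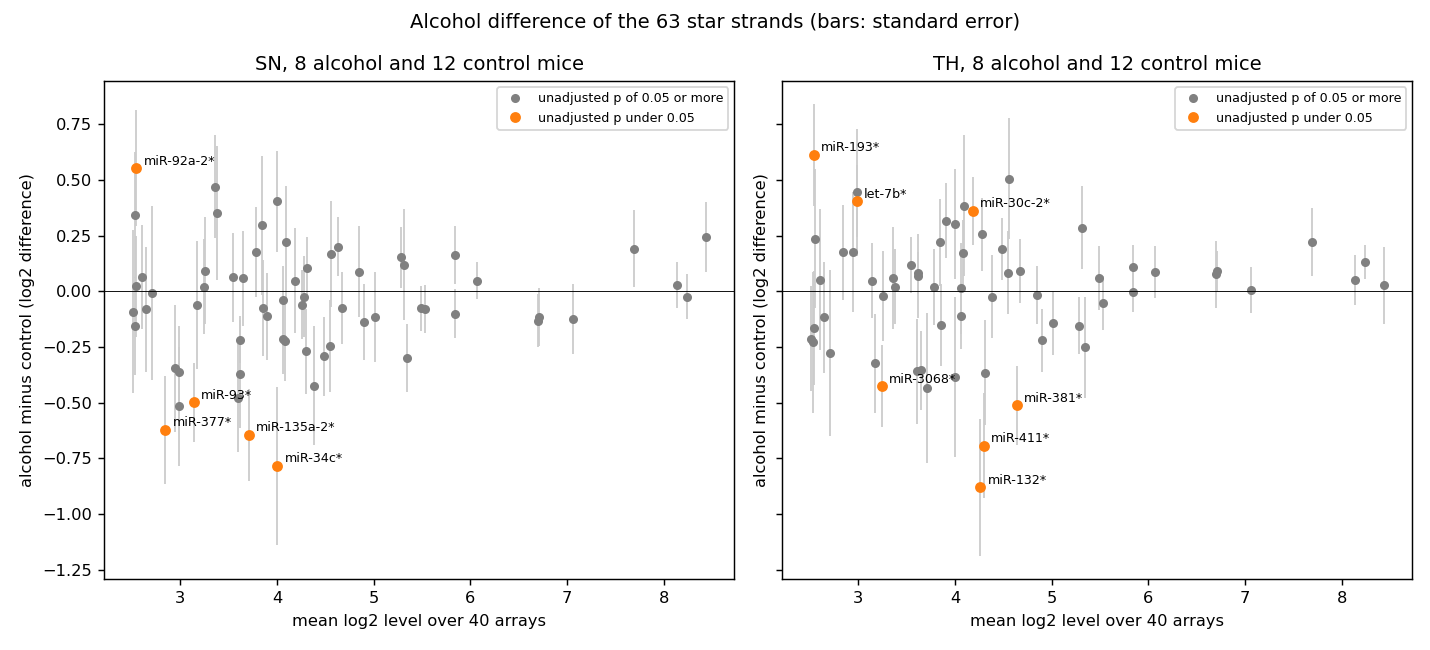
Alcohol minus control log2 difference (y axis, with standard error) of the 63 star strands against their mean level (x axis), in SN (left) and TH (right), 8 alcohol and 12 control mice. Orange points have an unadjusted p under 0.05 (5 in SN, 7 in TH), and all lie under a mean level of 5.

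The alcohol effect on the SN minus TH difference, fitted over all mice as a difference of differences, passed in none of the 63. It had an unadjusted p under 0.05 in 7, against 7.74% of the 1111 miRNAs, and by limma 0 of 1111 passed (0%). The smallest p belonged to let-7b-star, whose SN minus TH difference was lower in alcohol mice than in control mice by a log2 difference of -0.77 ± 0.22 (adjusted p = 0.371). miR-677-star had -0.48 ± 0.18 (adjusted p = 0.491) and miR-377-star -0.80 ± 0.30 (adjusted p = 0.529). Above 0 were miR-381-star (0.71 ± 0.22, adjusted p = 0.378), miR-132-star (0.82 ± 0.32, adjusted p = 0.529) and miR-3068-star (0.45 ± 0.24, adjusted p = 0.644).

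The balance of star against partner did not pass for any of the 53 hairpins between alcohol and control mice. In SN 3 had an unadjusted p under 0.05 (3.93% of all 280 pairs) and in TH 5 did (6.43%), with 0 of 280 passing in each by limma (0%). In SN the smallest p belonged to miR-93 (-0.48 ± 0.18), miR-872 (-0.42 ± 0.20) and miR-377 (-0.52 ± 0.28) below 0, and miR-346 (0.54 ± 0.25), miR-137 (0.53 ± 0.27) and miR-3077 (0.43 ± 0.23) above 0, all with an adjusted p of 0.738. In TH it belonged to miR-132 (-0.87 ± 0.29, adjusted p = 0.400), miR-381 (-0.41 ± 0.18, 0.591) and miR-411 (-0.51 ± 0.24, 0.651) below 0. Above 0 were miR-1298 (1.28 ± 0.51, adjusted p = 0.580), miR-193 (0.68 ± 0.28, 0.580) and miR-140 (0.51 ± 0.26, 0.651). The miR-132 partner, with a mean of 11.6, differed by -0.01. For miR-1298 the star strand differed by -0.15 and the partner, with a mean of 1.97, by -1.43, and the partner's SD was 0.25 in alcohol mice against 1.70 in control mice. For miR-140 the star strand differed by 0.05 and the partner by -0.46, and for miR-193 the star strand by 0.61 and the partner, with a mean of 1.07, by -0.07. In the same comparison the 5 choroid plexus miRNAs, 3 of them under the level, had a median difference of -0.49 with none passing. Their summed linear level was 39.6 to 73.2 in TH of alcohol mice against 27.6 to 237 in TH of control mice. Their part in these values was not tested.

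The mRNAs of the proteins that cut, export, load and edit miRNA strands were read on separate bead arrays of the same study. Of 39 listed genes, 33 had a probe in the table that compares SN and TH of 11 control mice, and 12 passed, 7 higher and 5 lower in SN. That table had 39.5% of its 17820 probes passing, and the median difference of the 33 genes was 0.04, against 0.00 over all probes. The values are on the authors' log2-like scale, which is compressed at low signal.

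Among proteins that act on the duplex, Ago2, the Argonaute with slicer activity, was higher in SN by 0.36 ± 0.06 (adjusted p = 0.000742), and Dicer1 by 0.17 ± 0.06 (adjusted p = 0.0451). The other probes of Ago2 differed by 0.03 to 0.28. Ago3 (0.04) and Ago4 (0.02) did not pass, nor did Drosha (0.09) or Dgcr8 (0.00), and Ago1 was not analysed here. Of the RNA-editing enzymes Adarb1 was higher by 0.32 ± 0.04 (adjusted p = 4.72e-05), though its other probes differed by -0.01 and 0.02. Tsn, a subunit of a passenger-strand nuclease in Drosophila, was higher by 0.08 and the exonuclease Xrn1 by 0.05.

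Lower in SN were Ran, the GTPase of hairpin export (-0.39 ± 0.06, adjusted p = 0.000133), the Drosha helicases Ddx5 (-0.14) and Ddx17 (-0.26), and the chaperones Hsp90ab1 (-0.11) and Hspa8 (-0.17), which help Argonautes take up a duplex. Between alcohol and control mice none of these genes passed. In SN (8 against 13 mice, 32 genes) 5 had an unadjusted p under 0.05, with 10.7% of 17514 probes at that level, and in TH (8 against 11 mice, 33 genes) 0 did, with 3.12% of 18318 probes. By limma 0 probes passed in either (0%). Dicer1 differed by -0.22 ± 0.07 in SN (adjusted p = 0.417) and by 0.01 ± 0.04 in TH (adjusted p = 0.999), and Ago2 by -0.19 ± 0.11 in SN and 0.08 ± 0.04 in TH.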

How the data were processed

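Per the labels, RNA of each fraction was hybridized to Affymetrix GeneChip miRNA arrays that carry miRBase probes. The deposited miRNA values are log2 values after RMA, and the authors' processing notes also name oligo and limma (with no versions). The mRNA tables hold bead signals, a linear intensity as deposited, beside detection p-values per the file headers, and the authors' normalized values on a log2-like scale. The submitters' processing notes name lumi. The number of arrays limits the precision.

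The log2 values were used as deposited, without a further filter. limma 3.58.1 in R 4.3.3 (data.table, version 1.17.8) fitted each comparison over all 1111 mouse mature miRNAs, 280 strand pairs or all mRNA probes, with Benjamini-Hochberg adjustment. SN against TH had the mouse as a block, since the labels say that both fractions come from one homogenate. As a check, deviations of SN and TH of one mouse correlated at -0.27 to 0.43 (median 0.13, over 0.1 in 13 of 20). Genes with several probes were read by the probe of highest mean. The fits were also run on simulated data with normal noise and known changes. That checks the code and not how well the model suits these arrays. Figures used matplotlib 3.10.9, and the summaries used pandas 2.3.3, scipy 1.17.1 and Python 3.11.15.

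Named were the strands that passed, the 10 of highest level, the 3 of smallest p each way where none passed, the 3 nearest the level on either side, and up to 10 pathway genes besides Dicer1, Drosha, Dgcr8 and the Argonautes. Strands with a shared seed and miR-150's partner were named for that. Members, lists and tests were chosen with earlier results of these data known. Alternatives were quantile normalization, median centring, a filter on the mean level, an intensity trend, other blocks, a joint fit, partners named without a locus number, and leaving out each mouse. The replicates are separate mice.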

Additional observations from a re-analysis of the deposited data

Results flagged for a closer look

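In 9 of the 74 groups of 8 alcohol arrays looked at (37 named star strands in SN and in TH), 1 array lay apart from the other 7 by more than Dixon's 95% limit. For independent groups of normal values that limit marks about 1 in 20. The groups here share arrays, and some strands were picked by their p in these data, so that rate does not apply. Control arrays were not looked at. Among the SN arrays, alcohol mouse 6 was low for 3 strands: miR-29b-2-star at 5.05 (others 5.66 to 6.11), miR-30c-2-star at 2.92 (others 4.11 to 4.69) and miR-674-star at 4.98 (others 5.49 to 5.88). Alcohol mouse 3 was low for miR-193-star at 1.94 (others 2.63 to 3.19) and high for miR-381-star at 5.26 (others 4.58 to 4.89), and alcohol mouse 2 was high for miR-504-star at 3.73 (others 1.68 to 2.43). Among the TH arrays, alcohol mouse 5 was low for miR-135a-2-star at 1.15 (others 2.89 to 4.25) and for miR-29b-2-star at 5.36 (others 5.83 to 6.08), and alcohol mouse 8 was low for miR-674-star at 4.57 (others 5.21 to 5.65).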

How the results depend on the processing

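Among the star strands and strand pairs that passed or had the smallest p, no difference changed sign in its own comparison under any alternative. The signs of the other named values, those of the mRNAs included, were not checked. In control mice the 9 star strands that passed between SN and TH became 5 under quantile normalization and 5 with both drinking groups in one fit, and 2 to 8 with a mouse left out. In alcohol mice the 4 became 7 under quantile normalization (3 higher and 4 lower, against 0 higher and 4 lower) and 5 under median centring (1 higher and 4 lower), and 3 to 6 with a mouse left out. For the strand balance the 4 of control mice became 2 to 5 and the 5 of alcohol mice 3 to 6 with a mouse left out, and in alcohol mice it was 2 with both strands over the level, where fewer pairs were tested. Without the replicate block the count was 9 in control mice, 8 of them shared, and 4 in alcohol mice, 3 shared. For the strand balance it was 6 and 5. The count of pathway mRNAs was 12, and 8 without the block. The alcohol comparisons stayed at 0 star strands and 0 hairpins in every alternative, the replicate block by title number included. Alcohol and control mice of one number are different mice. Over 7 such pairs, deviations had a median correlation of 0.02 in SN (-0.20 to 0.31) and -0.14 in TH (-0.31 to 0.15). These pairs are too few to exclude a matching by number. The causes were not tested. With 8 and 12 mice, alcohol differences under about 0.4 log2 units are within the median interval.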
